A study of Rattus norvegicus with 8 samples.

Results

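Proteins bound for secretion or for membranes enter the endoplasmic reticulum (ER), where they are folded, glycosylated and oxidised. The 48 genes described here encode the machinery of ER translocation and folding together with sensors and transcription factors of the ER stress response. They were chosen by symbol (subunit families of the signal recognition particle, the Sec61 channel, the TRAP complex, signal peptidase and oligosaccharyltransferase, the protein disulfide isomerases, and 17 further named genes) and by a level filter, 10 or more depth-normalized counts in 4 or more of the 8 libraries. All 48 genes with these symbols passed it, out of 33294 genes listed and 17919 that passed. The tissue was the neurohypophysis (neural lobe) of male Sprague Dawley rats aged 35 days, which the labels call the control, or 125 days, with 4 poly(A)-selected libraries of each age from lobes frozen after perfusion. No treatment other than age was labelled. The labels number the samples and do not say whether a number is 1 animal. The p-values below therefore rest on the spread among libraries, part of which may be technical.

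In the ER, a nascent chain is brought to the Sec61 channel by the signal recognition particle, its signal peptide is removed by signal peptidase, and oligosaccharyltransferase adds N-glycans. Calnexin and calreticulin hold glycoproteins while disulfide isomerases form their disulfide bonds, and unfolded chains are returned to the cytosol for degradation. When unfolded protein builds up, the membrane sensors IRE1 (Ern1), PERK (Eif2ak3) and ATF6 signal to the nucleus through spliced Xbp1, translated Atf4 and cleaved ATF6. The neural lobe holds the axon terminals of vasopressin and oxytocin neurons, whose cell bodies and rough ER lie in the hypothalamus, so that most cell bodies in the lobe are those of pituicytes, vessels and other non-neuronal cells. Splicing of Xbp1, translation of Atf4 and cleavage of ATF6 are not read by a count of reads per gene.

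The regulatory sequences below hold exact matches to elements through which ATF6, XBP1 and ATF4 are known to act. Variants and more distant sequence were not searched, so a gene without a match may still carry such an element. They come from RefSeq promoter windows of the GRCr8 assembly, from 250 bases before to 50 bases after a start site, which matched 40 of the 48 genes by symbol. The ER stress element, ERSE, was searched on both strands as CCAAT and CCACG with 9 bases of any kind between them. It was present in the windows of 4 of the 40 genes, those of Canx, Calr, Xbp1 and Ero1b, and in 22 of all 33469 windows (0.0657%). The shorter element ERSE-II, ATTGG and CCACG with 1 base between them, was present in that of Herpud1 and in 17 windows (0.0508%). Herpud1 also held an ATF4 element, TGATGCAA, on the opposite strand, a match found in 266 windows (0.795%). A UPR element, TGACGTGG, was found in Srp19 and in 199 windows (0.595%). The stretches below read 5′ to 3′ on the strand of the gene, with the matches in capitals. In Calr and Ero1b, and for the ATF4 element of Herpud1, the match lies on the opposite strand. Hspa5, which encodes the chaperone BiP, is shown for comparison. These stretches lie at chr10:35158049-35158107 (minus strand) for Canx, chr19:40213117-40213173 (plus) for Calr, chr14:84604538-84604596 (plus) for Xbp1 and chr17:92941438-92941496 (plus) for Ero1b. Those of Herpud1 and Hspa5 lie at chr19:10614801-10614911 (minus) and chr3:38452953-38453011 (plus).
Canx: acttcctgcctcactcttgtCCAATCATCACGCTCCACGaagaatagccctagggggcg
Calr: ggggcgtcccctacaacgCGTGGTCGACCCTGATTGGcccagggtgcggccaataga
Xbp1: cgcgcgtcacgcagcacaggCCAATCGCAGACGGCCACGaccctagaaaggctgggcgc
Ero1b: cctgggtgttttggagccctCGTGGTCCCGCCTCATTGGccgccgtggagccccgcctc
Herpud1: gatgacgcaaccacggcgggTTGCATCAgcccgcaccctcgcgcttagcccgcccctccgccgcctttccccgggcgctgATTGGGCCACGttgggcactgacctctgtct
Hspa5: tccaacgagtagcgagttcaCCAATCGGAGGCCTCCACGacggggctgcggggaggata

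Recovered reads ran from 28429133 to 58696254 per library. The 10 pituicyte markers on the list used to check the tissue were above 0 in all libraries, and so were all 11 markers of the anterior lobe and all 6 of the intermediate lobe. The summed level of the anterior lobe list ran from 24530 to 1394730 depth-normalized counts at 35 days, highest in replicate 3, and from 7372 to 51418 at 125 days. That of the intermediate lobe list ran from 2021960 to 3768230 and from 3628860 to 5353130. Library totals ran from 33129700 to 37367600 depth-normalized counts, so transcripts of the intermediate lobe list were a sizeable part of every library. The part of that tissue in the levels of the 48 genes was not tested. The library of 35-day replicate 3 stood apart: it was the highest or the lowest of its age for 41 of the 48 genes (30 highest, 11 lowest), while the other 35-day libraries were so for 9 to 25. Over all genes tested it was the highest or lowest for 78.6%. Counts of calls, and the genes on which it bears most, are given with and without it.

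Between 35 and 125 days, 1 of the 48 ER genes was called different. In limma, 1 of the 48 passed the threshold (a Benjamini-Hochberg adjusted p below 0.05 over all genes tested), Pdia5, which was 2.46-fold lower at 125 days, and 0 were higher. Across all genes tested, 17.7% were called, 8.87% lower and 8.85% higher. Without adjustment, 3 of the 48 had a p below 0.05 (6.25%, against 31.6% of all genes tested). Pdia5 was also the only gene of the 48 called by edgeR (17.7% of all genes) and by DESeq2 (23.4%), both on recovered reads. The median log2 change (125 minus 35 days) was -0.00 over the 48 genes and 0.01 over all genes tested, and the median size of a change, whatever its direction, was 0.13 against 0.23. For 35 of the 48 the 95% interval of the change lay inside 1.5-fold in either direction, against 46.4% of all genes tested. For 47 it lay inside 2-fold, against 13466 of the 17919 genes tested. These comparisons with all genes were not matched for level. Summed over the 48 genes, the level was 347597 ± 34365 depth-normalized counts at 35 days and 340413 ± 16142 at 125 days (SD, n = 4), or 0.912 to 1.08% of each library.

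**Figure D1:**
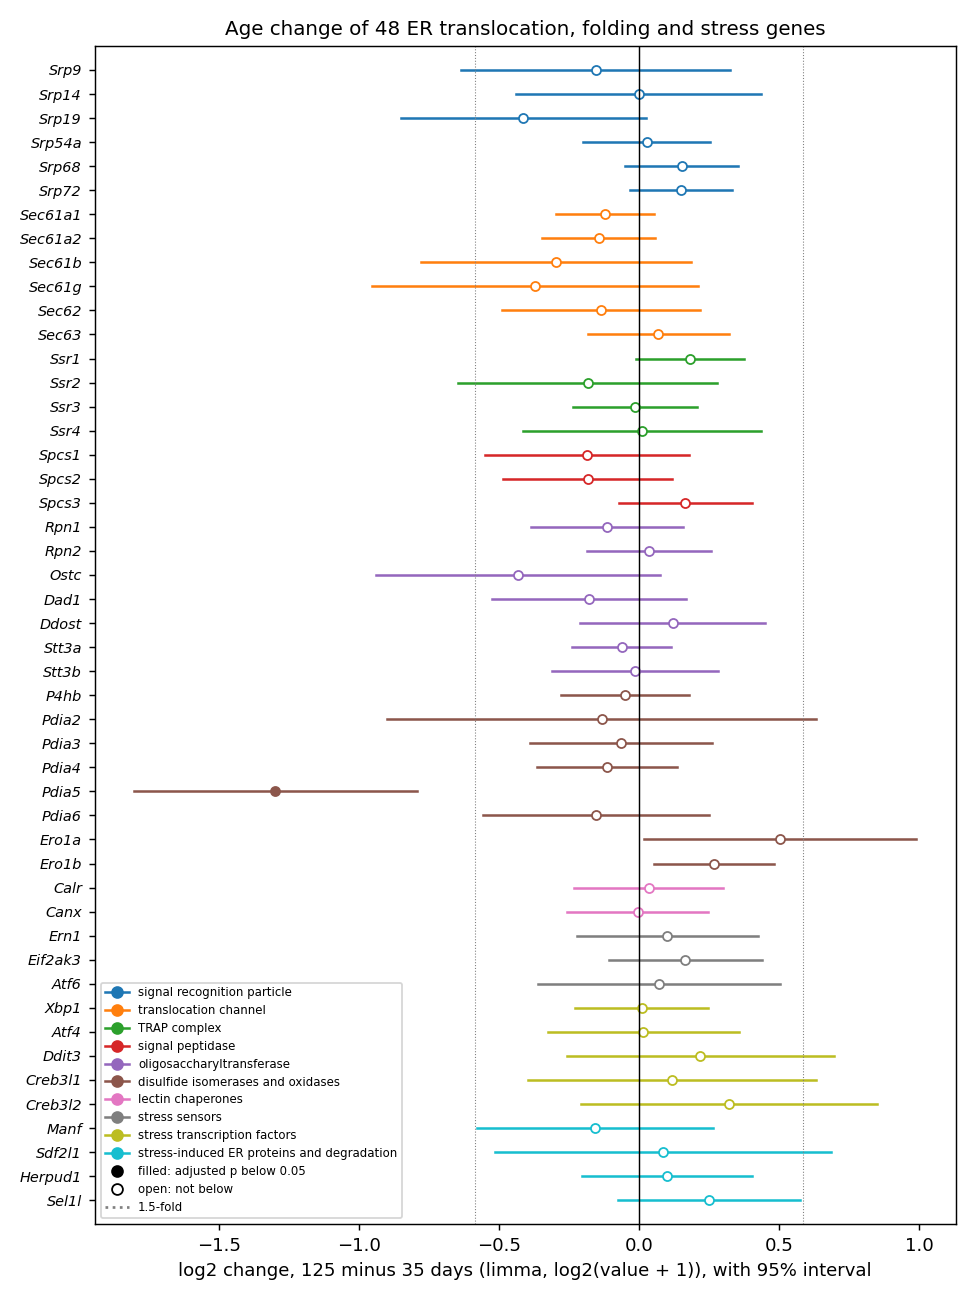
Log2 change of each of the 48 genes between 35 and 125 days (x axis, 125 minus 35) with its 95% interval, coloured by role. Filled points passed the threshold, and dotted lines mark 1.5-fold. Pdia5, at -1.30, is the only filled point, and 47 intervals lie inside 2-fold.

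Without 35-day replicate 3, 7 of the 48 were called, 6 higher and 1 lower. Of all genes tested, 30.7% were called in that fit, 15.9% higher and 14.8% lower. The 6 were Ero1a, Ero1b, Sdf2l1, Ddost, Srp68 and Ddit3, with log2 changes from 0.21 to 0.43, and Pdia5 was again the gene that fell. The median change of the 48 was then 0.04. The other alternatives called Pdia5 alone among the 48, save 3: library weights called 13 (44.0% of all genes), the anterior lobe marker level as a term added Ddit3 (15.7%), and the intermediate lobe level left 0 (2.08%). The share of all genes called was 17.7% and 17.8% with pseudocounts of 0.5 and 5, 11.6% with no filter and 17.9% with a mean of 50 or more. It was 17.7% with TMM and with upper-quartile scaling, 17.5% with library totals, 16.4% without the trend and 15.2% with the replicate block. Without 35-day replicates 1, 2 and 4 it was 13.5, 12 and 16.4%, and without 125-day replicates 1 to 4 it was 11, 15.9, 10.9 and 10.6%.

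In the targeting step, 0 of 6 genes were called when all 8 libraries were used. The 6 measured subunits of the signal recognition particle ran from a log2 change of -0.41 (Srp19, which takes part in particle assembly and was at -0.21 without 35-day replicate 3) to 0.15 (Srp68, which forms a dimer with Srp72). Srp54a, the subunit that binds the signal peptide, was at 0.03 (95% interval -0.20 to 0.25). Srp68 was at 2461, 2552, 2981 and 2578 depth-normalized counts in 35-day replicates 1 to 4, and at 2918, 2740, 2944 and 3127 in the 125-day replicates. Only 35-day replicate 3 reached into the range of the older libraries. Its change was 0.15 (SE 0.09, adjusted p = 0.283) with all libraries and 0.21 (SE 0.06, adjusted p = 0.0286) without replicate 3. Srp9 and Srp14, partners in the domain that slows translation, were 2.03 and 1.81 times as high in that replicate as in the mean of the other 35-day libraries.

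The Sec61 channel and its partners were likewise uncalled, 0 of 6, with changes from -0.37 to 0.07. Sec61b, a small subunit beside Sec61g, was at -0.30 with all libraries and at -0.07 without 35-day replicate 3. Sec61a1 and Sec61a2, which encode the pore, were at -0.12 (95% interval -0.30 to 0.05) and -0.14 (-0.35 to 0.06). Sec61g, a small subunit of the channel, was at 2259, 1709, 4038 and 1492 at 35 days and at 1797, 1495, 1692 and 1826 at 125 days. Its mean difference came mostly from 35-day replicate 3, since the log2 change of -0.37 (SE 0.26, adjusted p = 0.369) became -0.08 (SE 0.13, adjusted p = 0.680) without it. Sec62 and Sec63, which assist the import of some finished chains, stood on opposite sides in that library, 1.57 and 0.745 times the mean of the other 35-day libraries.

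The TRAP complex, which sits beside the channel, was measured by its 4 subunits Ssr1 to Ssr4, and 0 were called. Ssr1 was at 10440, 9971, 10045 and 9262 at 35 days and at 11710, 10823, 10857 and 11679 at 125 days, so that the ages did not overlap. Its log2 change was 0.18 (SE 0.09, adjusted p = 0.180), which did not pass the threshold. Ages that did not overlap were found for 4 of the 48 genes (3 higher at 125 days, 1 lower), against 24.9% of all genes tested (13.4% higher, 11.5% lower). Ssr2, Ssr3 and Ssr4 overlapped and ran from -0.18 to 0.01. Without 35-day replicate 3, Ssr2 was at 0.06 and Ssr4 at 0.22, and neither was called.

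Signal peptidase was measured by Spcs1, Spcs2 and Spcs3, and 0 were called. Spcs1 and Spcs2, accessory subunits, were both at -0.18, and Spcs3, which the catalytic subunits need, was at 0.17. These changes were -0.02, -0.07 and 0.11 without 35-day replicate 3. Oligosaccharyltransferase, with the catalytic subunits Stt3a and Stt3b and the accessory subunits Rpn1, Rpn2, Ddost, Dad1 and Ostc, also had 0 calls of 7. Rpn1 and Rpn2, also known as ribophorins, were at -0.11 and 0.04, and Dad1 was at -0.18. Stt3a was at -0.06 (95% interval -0.24 to 0.12) and Stt3b at -0.01 (-0.31 to 0.28). Rpn1 was at -0.03, Dad1 at -0.02 and Stt3b at -0.15 without 35-day replicate 3. Ddost was at 6034, 6845, 10024 and 6950 at 35 days and at 8167, 7650, 7446 and 8631 at 125 days. Apart from 35-day replicate 3, which was the highest of all, each younger library was below each older library. The change was 0.12 (SE 0.15, adjusted p = 0.624), and 0.27 (SE 0.08, adjusted p = 0.0244) without that replicate. Ostc, a subunit of the complexes that work at the channel, had the lowest change of the group at -0.43 (SE 0.23, adjusted p = 0.228), and -0.20 (SE 0.13, adjusted p = 0.302) without replicate 3.

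**Figure D2:**
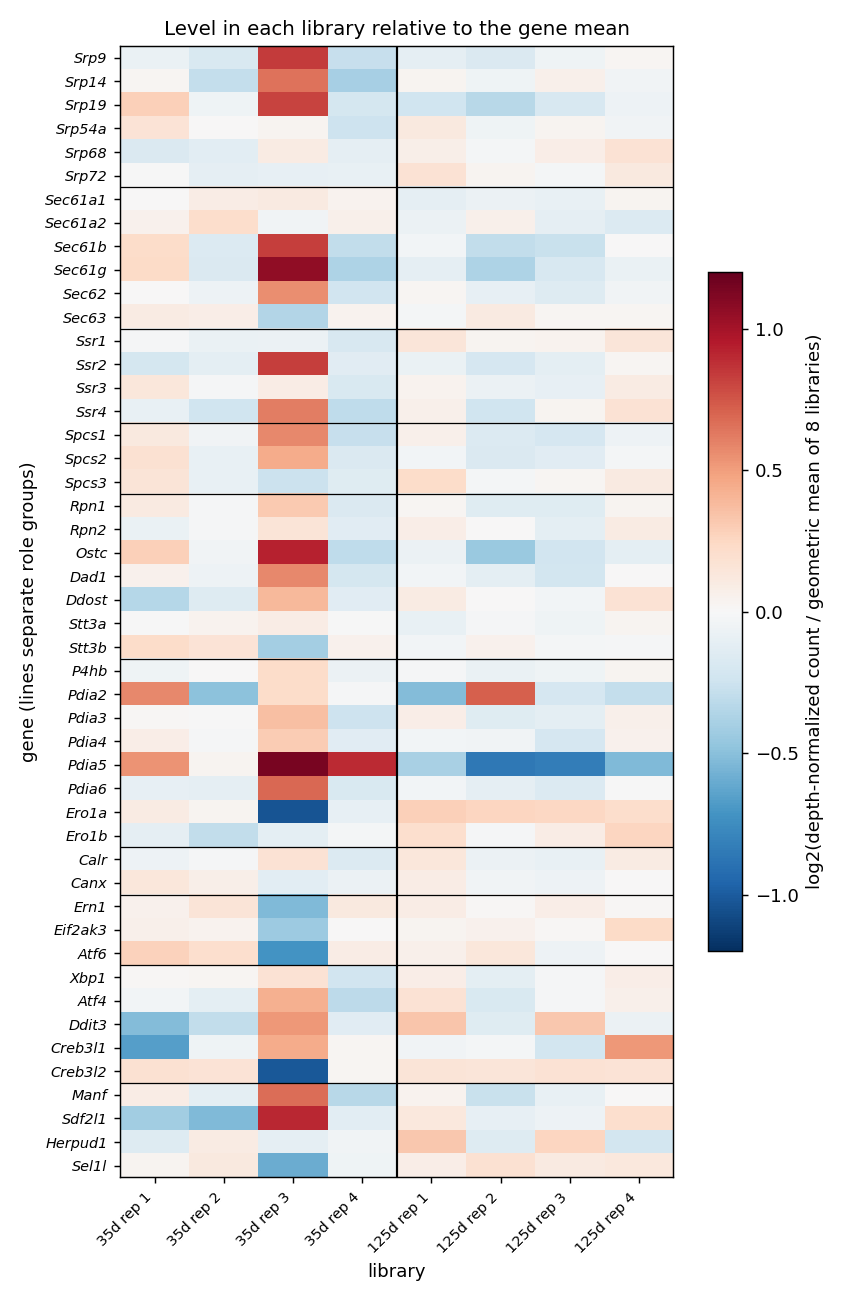
Level of each of the 48 genes in each library, as log2 of the value over the geometric mean of the 8 libraries (colour), with role groups separated by lines and the ages by a vertical line. The column of 35-day replicate 3 stands out in both directions, for example Sec61g and Sdf2l1 above and Creb3l2 and Ero1a below, and Pdia5 is higher in every 35-day library than in any 125-day library.

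The called gene belonged to the disulfide group, 1 of 8 (12.5%, against 17.7% of all genes tested). The role groups are too small for such counts to set a step apart from the others. Pdia5, a member of the protein disulfide isomerase family, was at 408, 287, 616 and 520 depth-normalized counts in 35-day replicates 1 to 4 and at 214, 154, 158 and 195 in the 125-day replicates. The lowest younger library was above the highest older library, and the younger libraries were more widely spread. From 458 ± 142 it fell to 180 ± 29.1 (SD, n = 4), with a limma log2 change of -1.30 (SE 0.23) and an adjusted p = 0.00391. With any single library left out it was still called (adjusted p = 0.00138 to 0.0161), and the smallest change, -1.14, was that without 35-day replicate 3. With the intermediate lobe level as a covariate Pdia5 was not called (-0.77, SE 0.43, adjusted p = 0.356). That level was higher in every 125-day library than in any 35-day library, so it cannot be told apart from age.

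In bulk tissue, fewer cells of a type and less RNA per cell cannot be told apart. Beside Pdia5, 6 of 8 fibroblast markers were lower at 125 days, with a summed level from 75803 to 103708 at 35 days and from 29587 to 46437 at 125 days. Of 5 plasma cell markers in the table, 2 were lower, with sums from 724 to 1228 and from 618 to 861. All 8 proliferating cell markers were lower, with sums from 7751 to 8446 at 35 days and from 1149 to 1340 at 125 days. So were 7 of 9 pericyte and smooth muscle markers (1 was higher), with sums from 9702 to 16664 and from 9498 to 12908, and 7 of 11 endothelial markers, with sums from 24876 to 34884 and from 15639 to 30647. Of 10 pituicyte markers 3 were lower, with sums from 73543 to 126382 and from 58223 to 87222. Of 9 microglia and macrophage markers 3 were lower and 1 higher, with sums from 12216 to 14267 and from 8936 to 14168. Of 11 anterior lobe markers 4 were lower and 1 higher, with sums from 24530 to 1394730 and from 7372 to 51418. No marker of these lists in the table was at 0 in any library. The part of these cell types, or of anterior lobe tissue, in the fall of Pdia5 was not tested. Pdia5 overlaps 2 long non-coding RNA genes in GRCr8, and without a stated strand setting their reads cannot be told apart.

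The other isomerases were not called. P4hb, the founding disulfide isomerase, was at 17800, 18421, 21422 and 17490 at 35 days and at 18279, 17430, 17786 and 18886 at 125 days. These ranges overlapped, with a change of -0.05 (SE 0.10, 95% interval -0.28 to 0.18, adjusted p = 0.781). Pdia3, which works with calnexin and calreticulin, Pdia4 and Pdia6 were at -0.06, -0.11 and -0.16 with all libraries, and at 0.05, -0.03 and 0.05 without 35-day replicate 3. Pdia2, at 9.14 to 21.5 depth-normalized counts, was close to the level filter, and its interval (-0.90 to 0.63) was the widest of the 48.

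Ero1a and Ero1b encode the oxidases that pass electrons from the isomerases to oxygen. Ero1a was at 1654, 1583, 752 and 1443 at 35 days and at 1883, 1853, 1842 and 1785 at 125 days. Ero1b was at 1786, 1568, 1778 and 1897 and at 2205, 1905, 2050 and 2302. All older libraries were above all younger libraries for both genes; in Ero1b the nearest libraries were 1897 and 1905. Neither passed the threshold with all libraries, at log2 changes of 0.50 (SE 0.22, adjusted p = 0.146) for Ero1a and 0.27 (SE 0.10, adjusted p = 0.0852) for Ero1b. Without 35-day replicate 3 both rose, Ero1a by 0.24 (SE 0.07, adjusted p = 0.0209) and Ero1b by 0.27 (SE 0.09, adjusted p = 0.0405). Leaving out that library changed the size of the Ero1a difference but not that of Ero1b. Under 1 of the 22 alternatives the Ero1a change was reversed (-0.35), while Ero1b kept its sign in all (0.20 to 0.38).

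**Figure D3:**
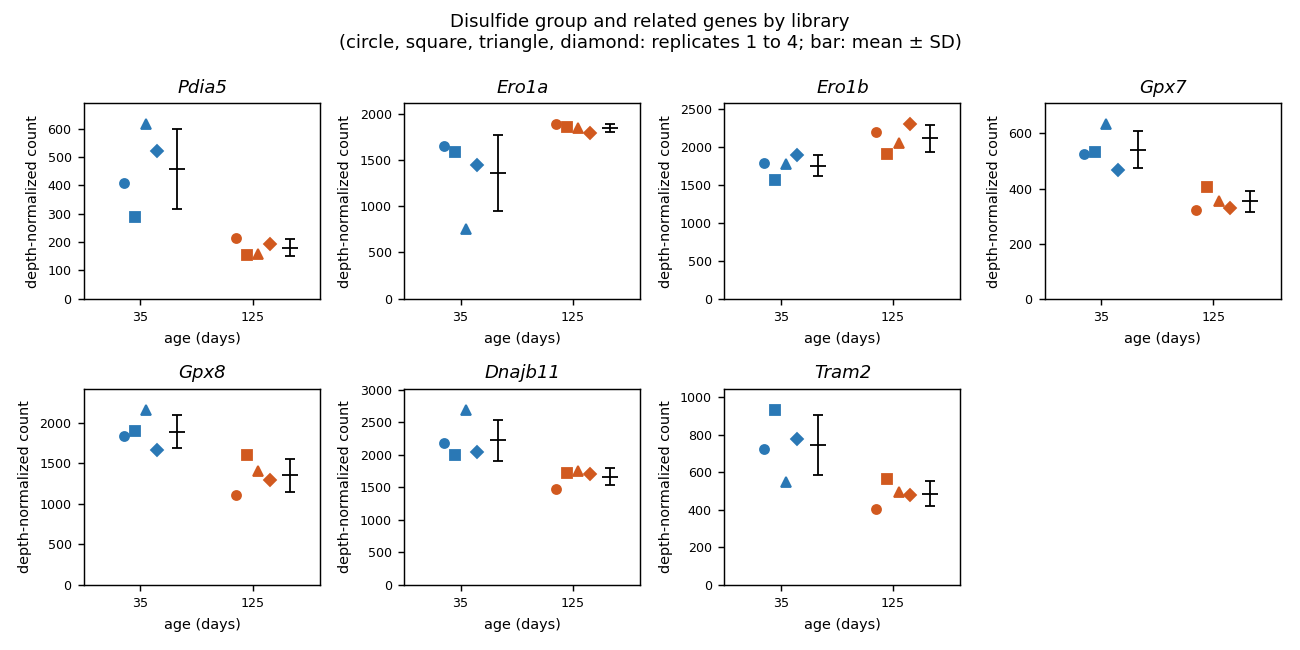
Depth-normalized counts by age for Pdia5, Ero1a and Ero1b and for 4 related genes outside the 48 (Gpx7, Gpx8, Dnajb11, Tram2), with each library as a point and the mean ± SD (n = 4) beside it. Pdia5, Gpx7, Gpx8 and Dnajb11 are lower in every 125-day library, while Ero1a and Ero1b are higher in every 125-day library.

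The lectin chaperones had the smallest median size of change of the 10 role groups, 0.02. Canx, encoding calnexin, was at 38403, 36584, 31980 and 33095 at 35 days and at 37190, 33783, 33321 and 35040 at 125 days. Calr, encoding calreticulin, was at 30345, 31211, 35562 and 28197 and at 34674, 30085, 29685 and 33739. The ages overlapped in both, and the changes were -0.00 (SE 0.11, 95% interval -0.26 to 0.25, adjusted p = 0.983) for Canx and 0.03 (SE 0.12, -0.23 to 0.30, adjusted p = 0.877) for Calr. Both carry an ERSE match in the windows shown above.

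Of the 3 stress sensors, 0 were called. Ern1, encoding IRE1, was at 2995, 3221, 1992 and 3130 at 35 days and at 3071, 2921, 3047 and 2916 at 125 days, which is a log2 change of 0.10 (SE 0.15, adjusted p = 0.678). Eif2ak3, encoding PERK, was at 2289, 2261, 1621 and 2197 and at 2248, 2280, 2215 and 2570 (0.17, SE 0.12, adjusted p = 0.391). Atf6 was at 6245, 5933, 3142 and 5480 and at 5383, 5663, 4930 and 5173 (0.07, SE 0.19, adjusted p = 0.840). All 3 were lowest in 35-day replicate 3, at 0.534 to 0.721 times the mean of the other 35-day libraries. Without it the changes were -0.06 (Ern1), 0.05 (Eif2ak3) and -0.15 (Atf6), and 0 were called.

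The transcription factors of the stress response did not pass the threshold with all libraries, 0 of 5. Xbp1 was at 8345, 8391, 9358 and 7082 at 35 days and at 8739, 7609, 8183 and 8743 at 125 days, with a change of 0.01 (SE 0.11, 95% interval -0.23 to 0.24, adjusted p = 0.967). Atf4 was at 5486, 5189, 7571 and 4524 and at 6314, 4939, 5559 and 5861, with a change of 0.01 (SE 0.15, -0.33 to 0.36, adjusted p = 0.962). The ages overlapped widely in both, and the intervals lay inside 1.5-fold. When 35-day replicate 3 was left out, Xbp1 was at 0.07 (adjusted p = 0.556) and Atf4 at 0.16 (adjusted p = 0.229).

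Ddit3, encoding the stress factor CHOP, was at 527, 616, 1084 and 687 at 35 days and at 951, 684, 949 and 719 at 125 days. The highest value was that of 35-day replicate 3. The change was 0.22 (SE 0.21, adjusted p = 0.527) with all libraries, 0.43 (SE 0.14, adjusted p = 0.0462) without replicate 3, and 0.68 (SE 0.18, adjusted p = 0.0292) with the level of the anterior lobe markers as a covariate. The mean log2 level of those markers was itself highest in 35-day replicate 3 (13.3, against 7.40 to 11.5 in the other libraries). The covariate fit and the fit without replicate 3 are therefore not independent. Ddit3 overlaps Mars1 in GRCr8, so reads of these genes may not be separated. In all, 16 of the 48 genes overlap another annotated gene there, among them Ero1a, Srp68, Sec61g, Atf6, Ern1, Canx, Herpud1 and Sel1l.

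Creb3l1 and Creb3l2 encode transcription factors that are released from the ER membrane by cleavage, and CREB3L1 is known as an activator of vasopressin gene transcription in the hypothalamus. Creb3l1 was at 338, 517, 729 and 542 at 35 days and at 519, 526, 459 and 764 at 125 days, for a change of 0.12 (limma, SE 0.23, adjusted p = 0.772). Its spread within each age was larger than the difference between them, and without 35-day replicate 3 its change was 0.29 (adjusted p = 0.309). Creb3l2 was at 15935, 15658, 6925 and 14241 and at 15626, 15505, 15818 and 15714 (0.32, SE 0.24, adjusted p = 0.389). The older libraries ran only from 15505 to 15818, and the mean difference came from 35-day replicate 3, since it was 0.04 (SE 0.07, adjusted p = 0.696) without that library.

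Among stress-induced ER proteins and degradation factors, 0 of 4 were called. Herpud1, which recruits the degradation complex, was at 3842, 4572, 3960 and 4150 at 35 days and at 5335, 3833, 5089 and 3665 at 125 days (0.10, SE 0.14, adjusted p = 0.658). Older replicates 1 and 3 were above all younger libraries, and older replicates 2 and 4 below all of them. Sdf2l1, a partner of BiP, was at 762, 703, 1896 and 927 and at 1106, 947, 975 and 1170. All older libraries were above younger replicates 1, 2 and 4, and below replicate 3. Sdf2l1 changed by 0.09 (SE 0.27, adjusted p = 0.863) with all libraries and by 0.40 (SE 0.11, adjusted p = 0.0233) without replicate 3. Manf, a secreted ER-stress factor, and Sel1l, a scaffold of ER-associated degradation, were at -0.16 and 0.25 with all libraries and at 0.04 and 0.09 without replicate 3.

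Much of the spread among the 35-day libraries was that of replicate 3, and it ran in opposite directions within some complexes. Against the mean of the other 35-day libraries it was 2.38 times as high for Sdf2l1, 2.22 for Sec61g, 1.98 for Ssr2, 1.90 for Ostc and 1.85 for Sec61b. In the same complexes it was close to the others for Sec61a1 (1.04 times), Ssr1 (1.02) and Stt3a (1.05). It was low for Creb3l2 (0.453), Ero1a (0.482), Sel1l (0.647) and Stt3b (0.680). The mean log2 level of anterior lobe markers was 13.3 in this library, 8.71 to 11.5 in the other 35-day libraries and 7.40 to 9.36 at 125 days. The part of anterior lobe tissue, of RNA quality or of transcript length in these values was not tested.

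**Figure D4:**
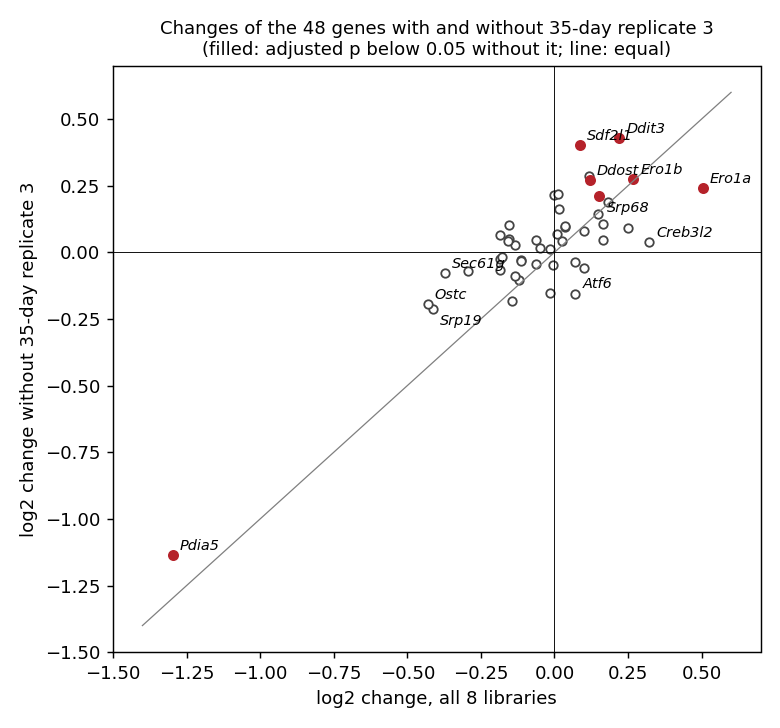
Log2 change of the 48 genes with all 8 libraries (x axis) and without 35-day replicate 3 (y axis), with filled points for genes called without it. The 6 genes called higher include Sdf2l1 and Ddit3, while Sec61g, Ostc and Creb3l2 move toward 0 and Pdia5 is called in both fits.

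The other genes of the pathway were taken from 6 lists with 108 measured genes outside the 48, of which 9 rose and 4 fell (12%, against 17.7% of all genes tested). ER chaperones and cochaperones had 1 lower of 16, other thioredoxin-fold proteins 2 lower of 16, targeting and translocon partners 1 lower of 21, and N-glycan trimming and quality control 2 higher of 17. ER-associated degradation had 0 of 19 (2 with an unadjusted p below 0.05 in limma). Stress signalling had 7 higher and 0 lower of 19 (36.8%, against 17.7% of all genes tested in either direction and 8.85% higher). All lists were chosen with earlier results of these data known, so this share is not independent evidence of a rise in the group. The median log2 change over the 19 was 0.22, against 0.01 over the 108. Hspa5 was at 42971 ± 8762 and 44464 ± 3074 (0.07, SE 0.15, adjusted p = 0.806), and Hsp90b1, encoding the ER chaperone GRP94, at 31709 ± 5563 and 28762 ± 1697 (-0.13, SE 0.14, adjusted p = 0.577). Without 35-day replicate 3, 24 of the 108 were called higher and 9 lower, against 15.9% and 14.8% of all genes tested.

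The stress signalling genes that rose are known targets or partners of the PERK, ATF4 and CHOP branch, which amino acid shortage and other stresses also drive. Trib3, a pseudokinase gene, was at 67.0, 99.2, 77.4 and 106 depth-normalized counts at 35 days and at 470, 270, 419 and 394 at 125 days. It rose 4.39-fold with no overlap (log2 change 2.13, SE 0.21, adjusted p = 1.46e-04). Asns, encoding asparagine synthetase, was at 1368, 1352, 1777 and 1416 and at 2923, 2243, 2508 and 2886 (0.84, SE 0.12, adjusted p = 0.00151). Chac1, encoding an enzyme that breaks down glutathione, was at 157, 165, 198 and 170 and at 360, 244, 343 and 313 (0.85, SE 0.15, adjusted p = 0.00409). In each of these genes 125-day replicate 2 was the lowest of the older libraries and still above every younger library.

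Ppp1r15a encodes the phosphatase subunit GADD34, which reverses the PERK signal. It was at 1044, 1334, 1292 and 1133 at 35 days and at 1965, 1534, 1784 and 2300 at 125 days (0.65, SE 0.14, adjusted p = 0.00951). Sesn2, encoding a sestrin that senses leucine, was at 752, 935, 752 and 1008 and at 1512, 1062, 1329 and 1336 (0.60, SE 0.14, adjusted p = 0.0152). Atf3, a transcription factor gene of the stress and immediate early responses, was at 51.1, 45.5, 76.3 and 67.2 and at 113, 86.0, 141 and 113 (0.91, SE 0.22, adjusted p = 0.0182). None of these overlapped between ages. Atf5, the gene that completes the 7, was named after its values were seen and overlapped between ages (0.79, SE 0.23, adjusted p = 0.0407). In GRCr8 Atf5 overlaps Nup62 and Il4i1, Atf3 overlaps Garin4 and Sesn2 overlaps LOC134487007, so reads of these genes may not be separated.

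Trib3, Asns, Chac1 and Ppp1r15a were called whichever single library was left out. The Sesn2 call was lost without 125-day replicates 1 or 4 (adjusted p = 0.0506 to 0.0524). That of Atf3 was lost without 35-day replicate 2 or 125-day replicates 1, 3 or 4 (0.0520 to 0.0614), and that of Atf5 without any 1 library but 35-day replicate 3 (0.0617 to 0.114). Atf5 was also lost with library total scaling (0.0523), without the trend (0.0669) and in edgeR (0.0503). Beside these genes, 2 of 5 tested intermediate lobe markers rose, and the mean log2 level of that list was between 12.8 and 13.3 in the younger libraries and between 13.5 and 13.7 in the older. With that level as a covariate, Trib3 had a change of 2.07 (SE 0.43, adjusted p = 0.0509), Asns 0.97 (SE 0.25, adjusted p = 0.0826), Chac1 0.95 (SE 0.31, adjusted p = 0.140) and Ppp1r15a 0.58 (SE 0.28, adjusted p = 0.291). Since the level was higher in every 125-day library, it cannot be told apart from age.

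**Figure D5:**
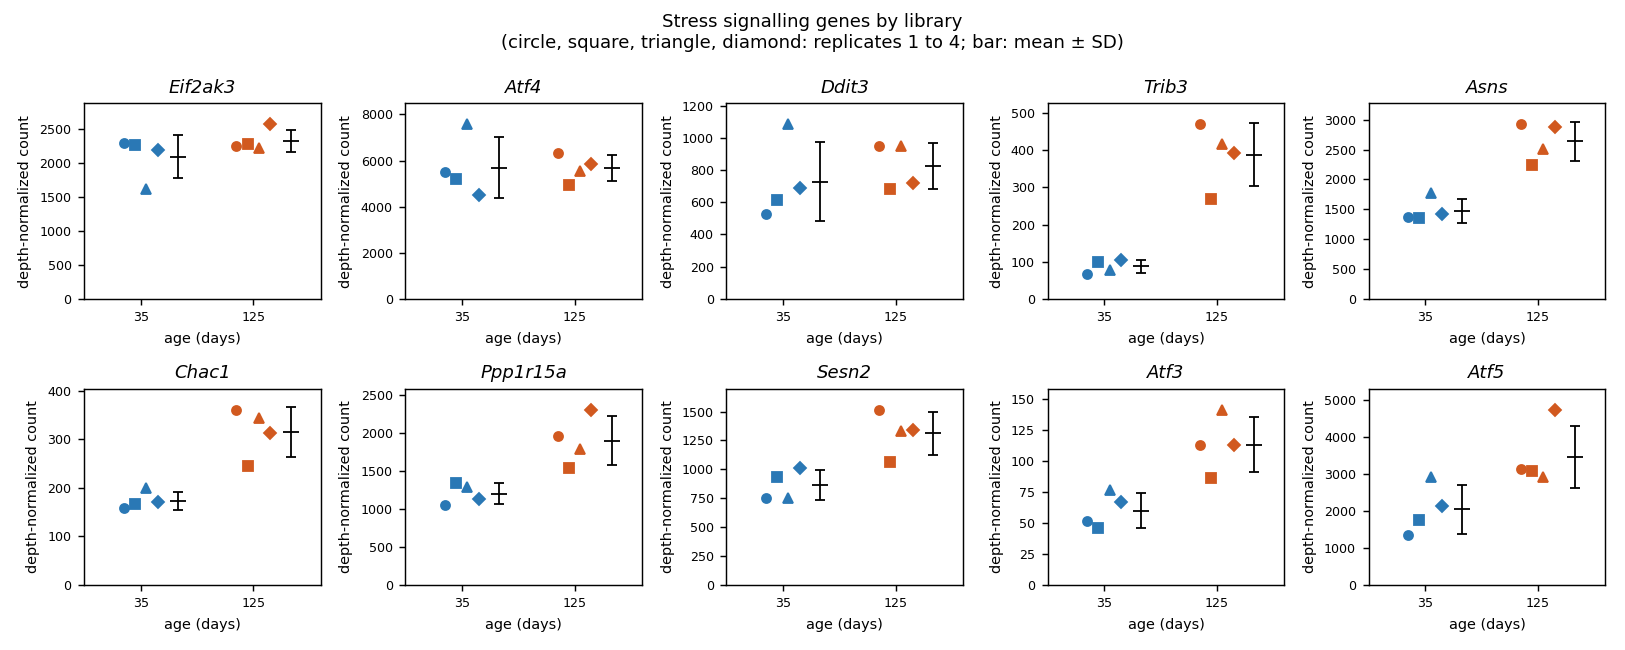
Depth-normalized counts by age of Eif2ak3, Atf4 and Ddit3, from the 48 genes, and of the 7 called stress signalling genes, with each library as a point and the mean ± SD (n = 4) beside it. Trib3, Asns, Chac1, Ppp1r15a, Sesn2 and Atf3 are higher in every 125-day library, while Eif2ak3, Atf4 and Ddit3 overlap between ages.

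Of the 6 stress genes that rose and had a promoter window, only Chac1 held the 8-letter ATF4 element in its promoter window, on the opposite strand. That stretch, at chr3:126795944-126795991 (plus strand) in GRCr8, is shown because Chac1 rose while Herpud1, the gene of the 48 with the same match, did not pass the test. Ppp1r15b, also of the stress signalling list, held the element on its own strand and was not called in limma (-0.03, SE 0.08, adjusted p = 0.814). Variants of the 8 letters were not searched.
Chac1: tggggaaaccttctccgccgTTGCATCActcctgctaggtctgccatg

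The pathway genes that fell were Gpx7 and Gpx8, which encode ER peroxidases, Dnajb11, a cochaperone of BiP, and Tram2, a translocation factor linked to collagen synthesis that was named after its values were seen. Gpx7 was at 527, 534, 633 and 469 at 35 days and at 322, 406, 356 and 329 at 125 days (-0.61, SE 0.13, adjusted p = 0.00887), with no overlap. Gpx8 fell from 1888 ± 204 to 1353 ± 204 (-0.49, SE 0.13, adjusted p = 0.0253) and Dnajb11 from 2224 ± 317 to 1664 ± 130 (-0.41, SE 0.11, adjusted p = 0.0321). Tram2 fell from 745 ± 158 to 485 ± 65.3 (-0.60, SE 0.17, adjusted p = 0.0321). The lower markers given beside Pdia5 come from the same comparison, and their part was not tested here either. They were 8 of 8 of proliferating cells, 7 of 9 of pericytes and smooth muscle, and 7 of 11 of endothelium. Of fibroblasts they were 6 of 8, of pituicytes 3 of 10, and of microglia and macrophages 3 of 9. Of plasma cells they were 2 of 5, and of the anterior lobe 4 of 11.

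The Gpx7 call was kept without any 1 library and lost with the intermediate lobe covariate (adjusted p = 0.433). Gpx7 overlaps Tut4 in GRCr8. Gpx8 was lost without younger replicate 1 or 2, or older replicate 1, 3 or 4 (adjusted p = 0.0528 to 0.0762), and Dnajb11 without 35-day replicate 1 or any older library (0.0541 to 0.100). The Dnajb11 call was also lost in the fit without the trend. Tram2 was lost without each library (0.0678 to 0.0978) other than 35-day replicate 3 and 125-day replicate 2. With the anterior lobe covariate, Gpx8 was at -0.46 (SE 0.17, adjusted p = 0.0950) and Dnajb11 at -0.31 (SE 0.14, adjusted p = 0.171).

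In the glycan group Man1b1, an ER mannosidase gene, rose from 4915 ± 137 to 6242 ± 395 (0.34, SE 0.08, adjusted p = 0.0180), a call lost without 125-day replicates 3 or 4 (0.0650 and 0.0734). Ganab, the catalytic subunit gene of glucosidase II and named after its values were seen, rose 0.31 (SE 0.09, adjusted p = 0.0426). The Ganab call was kept only without 35-day replicates 3 or 4 among the fits that left out 1 library (otherwise 0.0683 to 0.126), and it was lost with no filter (0.0811), upper-quartile scaling (0.0543), library total scaling (0.125), the replicate block (0.0875) and the anterior and intermediate lobe covariates (0.132 and 0.362).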

How the data were processed

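RNA-seq of 8 neural lobe libraries, 4 of each age, was taken from the authors' deposited table of depth-normalized counts. This signal is the number of reads per gene over a size factor of each library: 100% of the deposited values were whole multiples of what 1 read is worth in that library (tolerance 0.001 reads). Recovered reads were used for edgeR and DESeq2 alone. The submitters' processing notes name, without saying what each did, DESeq2 1.34.0, Subread 2.0.1 with featureCounts, HISAT2 2.2.1, SAMtools 1.13, Trimmomatic 0.39 and the rn7 build. Annotation, strand setting and treatment of multi-mapping reads are not given in the sources read. The 2 columns of the authors' means were not used.

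The 17919 genes that reached 10 in 4 or more libraries were tested two-sided with limma 3.58.1 (R 4.3.3, prior variance trended on level) on log2(value + 1), age being the only term. This scale understates changes of genes at low levels. Fold values are those of the fit. Levels are not compared between genes, since lengths were not used. The fit was tested on simulated data. Alternatives were edgeR 4.0.16, DESeq2 1.42.0, pseudocounts of 0.5 and 5, other filters (none, mean of 50 or more), 3 other scalings, an untrended fit, library weights, a block on replicate number, covariates from 2 marker lists, and each library left out in turn. Libraries of 1 age differed by 13.4 to 230 times the variance of read sampling, so none was a copy of another.

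The genes described and all lists were chosen with earlier results of these data known. By rule, values in every library were given for called genes of the 48 and for Xbp1, Atf4, Atf6, Ern1, Eif2ak3, Ddit3, Creb3l1, Creb3l2, Canx, Calr, P4hb, Herpud1 and Ero1b, and of the pathway lists the 10 called genes with the lowest p, Hspa5 and Hsp90b1 were named. Values of Srp68, Sec61g, Ssr1, Ddost, Ero1a and Sdf2l1 in every library were added after they were seen. RefSeq names, neighbours and promoter sequences are those of GRCr8, not of rn7. Figures were drawn with matplotlib 3.10.9.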

Additional observations from a re-analysis of the deposited data

Results flagged for a closer look

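In 126 groups of 4 libraries (63 genes at each age), 11 held a library whose gap to its nearest neighbour was a larger part of the range of the group than Dixon's test allows at 95%, a limit that chance passes in about 1 of 20 groups. Of these, 7 were 35-day replicate 3. It was the highest for Srp9 (2830, next 1492), Ssr2 (5086, next 2629), Pdia6 (21275, next 12320), Asns (1777, next 1416) and Hspa5 (55977, next 39798), and the lowest for Sec63 (5263, next 6898) and Eif2ak3 (1621, next 2197). The others were Srp72 in 35-day replicate 1 (5332, next 5039), Man1b1 in the same library (4711, next 4969), Dnajb11 in 125-day replicate 1 (1470, next 1708) and Atf5 in 125-day replicate 4 (4729, next 3126).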

How the results depend on the processing

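Of 47 uncalled genes of the 48, 35 stayed uncalled under all 22 alternatives, and 31 changed sign under at least 1. No called gene of the 48 or of the pathway changed sign. Library weights called 10 of the 48 higher and 3 lower, against 44.0% of all genes (3973 higher, 3919 lower), and 27 pathway genes higher and 10 lower. The anterior lobe covariate added 1 higher call, Ddit3. With the intermediate lobe covariate 0 of the 48 were called (2.08% of all genes, 167 higher and 206 lower) and 0 pathway genes in either direction. Lower pathway calls were 7 with library total scaling and 7 with DESeq2. Without 1 library, higher calls among the 48 ran from 0 to 6 and lower calls were 1 each time. All-gene calls ran from 860 to 2846 higher and from 1032 to 2649 lower, and pathway calls from 4 to 24 and from 1 to 9, with the highest counts without 35-day replicate 3. All-gene counts without 125-day replicates 1, 3 and 4 were 942, 916 and 860 higher, and pathway counts 5, 5 and 4 higher and 1 lower each. Lower pathway calls were 1 and 2 without 35-day replicates 1 and 2. The cause was not tested. With library total scaling the split of all calls was 1161 higher and 1978 lower. The labels do not say that the replicate numbers pair the libraries. Same-numbered libraries correlated at -0.116 to 0.167 in their deviations, and 2 of 8 correlated best with their own number. With 4 libraries of each age, these values cannot settle whether a weaker pairing exists. With the replicate block, 0 of the 48 were called higher and 1 lower, 1290 and 1428 of all genes, and 8 and 4 of the pathway. Pdia2, the gene of the 48 nearest the level filter, had the widest interval, -0.90 to 0.63.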
